A study of Mus musculus with 12 samples.

Results

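The transcripts described here are those of 10 genes whose proteins restrain the RAS/MAPK pathway: the ERK phosphatases Dusp4, Dusp5, Dusp6 and Dusp7, the Sprouty genes Spry1, Spry2 and Spry4, and the Spred genes Spred1, Spred2 and Spred3. They are a fixed list chosen by family, not the whole of each family, and a family below means the genes named here. Spry3 and other phosphatases that can act on ERK were placed in lists around them. All 10 were found among the 16411 genes of the count table. Sequencing covered 6 mammary tumors and 6 benign mammary samples. All 12 samples came from untreated female MMTV/neu ndl-YD5 mice on the FVB background, heterozygous for the transgene, so the benign tissue carried it as well and no wild-type tissue was compared. The MMTV promoter drives an activated form of neu (Erbb2, HER2) in the mammary epithelium, and the YD5 version keeps a tyrosine that couples the receptor to SHC and GRB2. The benign samples were mammary tissue in which no tumor was seen, taken far from any tumor, and for RNA the benign samples and the tumors came from different mice, whose ages the labels do not give.

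ERK is the last kinase of a cascade that runs from receptors such as HER2 through RAS, RAF and MEK. Sprouty proteins block the relay from the receptor to RAS and RAF, Spred proteins bring the RAS inactivator neurofibromin to the membrane and hold back RAF, and the dual-specificity phosphatases Dusp4, Dusp5, Dusp6 and Dusp7 remove the activating phosphates from ERK. Many of these genes are themselves transcribed in response to ERK, which makes them negative feedback inhibitors and common readouts of the pathway in epithelium and its tumors.

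Of the 10 genes, 9 were higher in the tumors and 1, Spry1, was lower. Dusp6 rose most, by 12.6-fold in mean level. In 6 of the 10 genes every tumor lay above every benign sample: Dusp6, Dusp7, Spry2, Spred1, Spred2 and Spred3. The test was edgeR's quasi-likelihood test over the 13191 genes with enough counts, read at an adjusted p-value of 0.1. Over all those genes 28.1% were higher in tumors and 34.8% were lower, every tumor lay above every benign sample in 14.7%, and every tumor lay below in 21.2%. The median log2 fold change was 1.48 over the 10 genes and -0.06 over all genes tested. All 10 genes passed the filter on low counts, and the smallest count was 17, for Dusp5 in benign sample 6. Levels in the text are CPM (counts scaled to a common library size), and fold changes are tumor over benign.

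**Figure D1:**
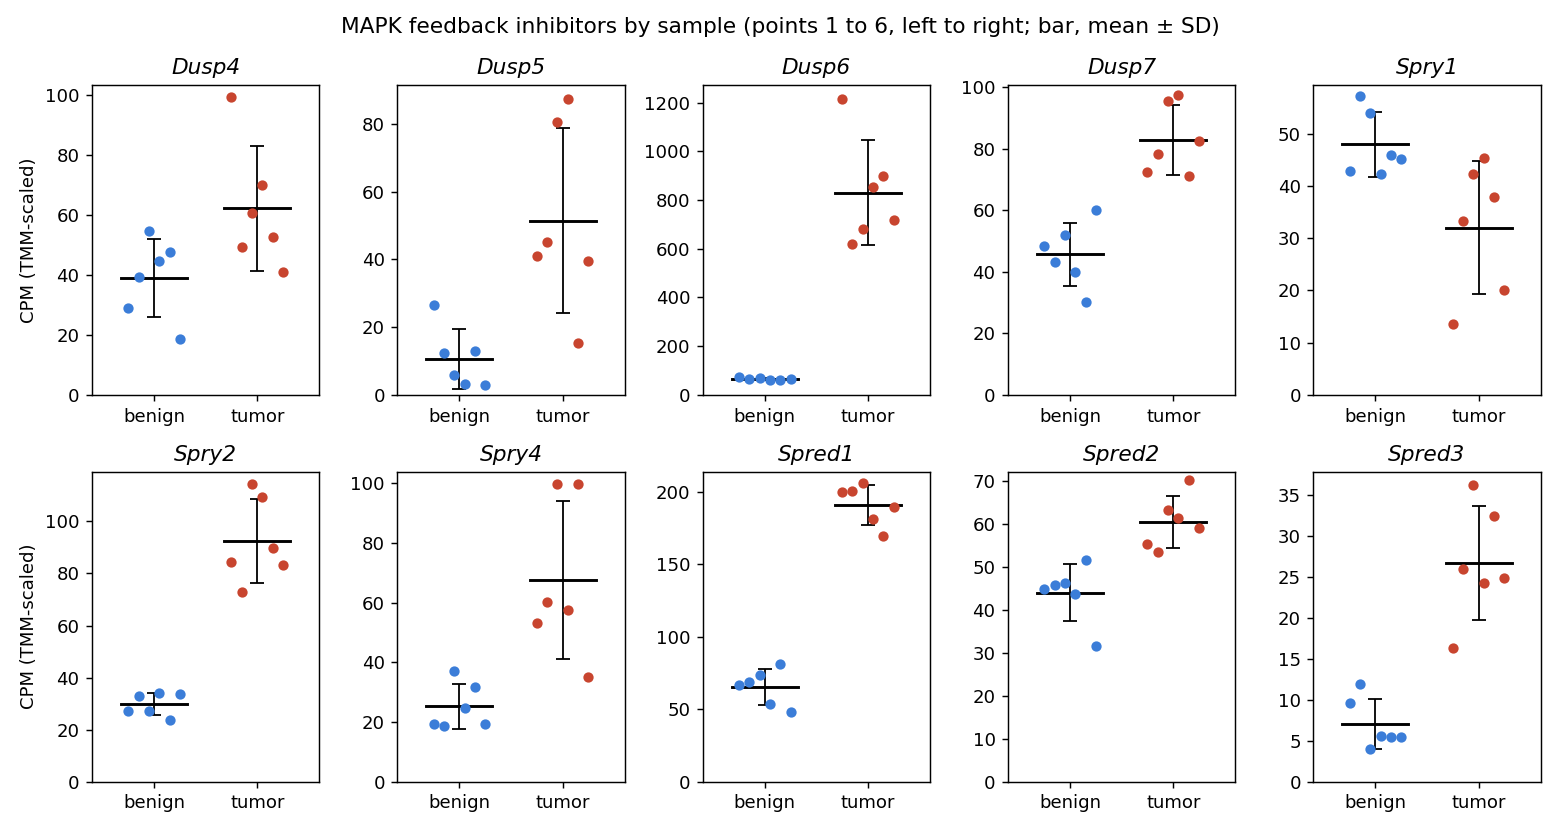
Level of each of the 10 genes in every sample, in TMM-scaled CPM on a linear axis from 0 that differs between panels, with samples 1 to 6 of each group from left to right as points, the group mean as a horizontal line and the SD as an error bar. The tumors lie above all benign samples for Dusp6, Dusp7, Spry2, Spred1, Spred2 and Spred3, and Spry1 is the only gene whose tumors reach lower than its benign samples.

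Bulk tissue sets a limit on all of these values, since fewer cells of a type and less RNA per cell cannot be told apart in it. Total counts were alike in both groups, 5240853 to 8170687 in benign tissue and 6111393 to 8588567 in tumors. Of 6 luminal epithelial markers, 5 were higher and 1 (Krt19) was lower in tumors, and their sum was 0.0882% to 0.243% of counts in benign tissue and 0.253% to 0.412% in tumors. All 5 basal, 6 adipocyte, 5 endothelial and 5 fibroblast markers were lower, and adipocyte markers summed to 0.716% to 1.66% of counts in benign tissue and to at most 0.00876% in tumors. No marker was at 0 in all 6 tumors. Skeletal muscle markers made up 4.94%, 3.30% and 8.38% of counts in benign samples 3, 4 and 6 and at most 0.0361% in benign samples 1, 2 and 5. The part of this tissue make-up in the results was not tested beyond the values given beside them.

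Dusp6 encodes the cytoplasmic phosphatase that acts almost only on ERK. In benign tissue its level was 61.3 CPM at the lowest, 64.9 at the median and 74.5 at the highest, and in tumors it was 620.7, 784.4 and 1214. The 2 groups were far apart, and the benign samples were closer to each other than those of any other gene of the 10 relative to their mean. The mean rose from 66.1 ± 4.86 CPM to 830.2 ± 215 CPM (SD, n = 6 each), a log2 fold change of 3.65 (standard error, SE, 0.18, adjusted p = 5.8e-09 by edgeR). Of the 13191 genes, 1.08% had a higher log2 fold change than Dusp6. The study itself picked Dusp6 out from these samples, so its rise is not independent evidence of a direction. Its start lies on chromosome 10 of GRCm38, the build the labels name as mm10, and the bases just before it are shown because no other gene of the 10 rose as much. They cover chr10:99262981-99263230 on the plus strand, and their GC content is 56.4% (RefSeq, GRCm38.p6).
Dusp6: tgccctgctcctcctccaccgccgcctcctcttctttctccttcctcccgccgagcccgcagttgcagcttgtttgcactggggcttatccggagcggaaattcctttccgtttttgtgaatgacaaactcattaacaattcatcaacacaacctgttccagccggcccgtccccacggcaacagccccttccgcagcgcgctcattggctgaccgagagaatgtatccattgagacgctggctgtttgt

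Dusp5, a nuclear ERK phosphatase, rose 4.83-fold. It ran from 3.02 to 26.5 CPM in benign tissue with a median of 9.18, and from 15.2 to 87.2 CPM in the tumors with a median of 43.2. Only tumor 5, at 15.2 CPM, was within the benign range, where benign sample 1 was the highest. The means were 10.7 ± 8.89 and 51.5 ± 27.3 CPM, and the log2 fold change of Dusp5 was 2.27 (SE 0.55, adjusted p = 0.0034 by edgeR). Within benign tissue Dusp5 was split in the same way as the muscle markers. It was 26.5, 12.4 and 12.9 CPM in benign samples 1, 2 and 5 and 5.94, 3.21 and 3.02 CPM in benign samples 3, 4 and 6. Against benign samples 1, 2 and 5 alone its log2 fold change came to 1.64 (adjusted p = 0.026 by edgeR). With a skeletal muscle score and Ucp1 (a brown fat gene) as covariates it was 0.90 and was no longer called (adjusted p = 0.218). On the annotation used for lengths, 22.1% of the exon bases of Dusp5 overlap a gene on the opposite strand that is not in the table, and the counting is not stated to use strand.

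The bases before the start of Dusp5 are shown because they hold one of the 2 matches found to the ETS core motif GGAAGT, the site that the ETS factors downstream of ERK recognize. They cover chr19:53528895-53529108 on the plus strand of GRCm38, with a GC content of 65.0%, and the capitals mark the match, which reads on the minus strand, 157 to 152 bases before the GENCODE start at the end of this stretch and 193 to 188 bases before the RefSeq start, which lies further downstream.
Dusp5: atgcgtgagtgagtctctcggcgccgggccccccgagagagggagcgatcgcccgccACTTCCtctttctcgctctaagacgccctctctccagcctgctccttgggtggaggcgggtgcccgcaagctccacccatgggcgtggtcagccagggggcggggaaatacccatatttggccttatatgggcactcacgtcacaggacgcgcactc

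Dusp4 and Dusp7 changed less. Dusp7, which encodes another cytoplasmic ERK phosphatase, had a level of 30.2, 45.8 and 60.2 CPM in benign tissue (lowest, median and highest) and 71.2, 80.4 and 97.5 CPM in the tumors. The groups did not overlap, and the log2 fold change of Dusp7 was 0.86 (SE 0.16, adjusted p = 4.3e-04 by edgeR). Dusp4, which encodes a nuclear phosphatase with ERK among its substrates, had a level of 18.5, 42.0 and 54.5 CPM in the benign samples and 40.8, 56.6 and 99.2 CPM in the tumors. The groups overlapped, with 3 tumors above the highest benign sample, and the log2 fold change of Dusp4 was 0.67 (SE 0.27, adjusted p = 0.046 by edgeR). The call for Dusp4 was lost with the muscle score and Ucp1 as covariates, at a similar log2 fold change of 0.64 with a larger SE of 0.40 (adjusted p = 0.227 by edgeR).

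The Sprouty genes did not move together. Spry2, the family member best known for intercepting receptor signals to RAS, had a level of 23.7, 30.2 and 34.0 CPM in benign tissue (lowest, median and highest) and 73.0, 87.0 and 114.6 CPM in the tumors. The lowest tumor was well above the highest benign sample, and the log2 fold change of Spry2 was 1.63 (SE 0.14, adjusted p = 6.6e-07 by edgeR). Spry4, which also acts on the RAS to RAF step, had a level of 18.7, 22.1 and 37.1 CPM in the benign samples and 35.0, 58.9 and 99.8 CPM in the tumors. Only tumor 6, at 35.0 CPM, was within the benign range, and the log2 fold change of Spry4 was 1.42 (SE 0.27, adjusted p = 7.0e-04 by edgeR).

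Spry1, a Sprouty with the same conserved cysteine-rich domain, went the other way. It had a level of 42.4, 45.6 and 57.2 CPM in the benign samples and 13.5, 35.6 and 45.4 CPM in the tumors. Tumor 1 was the lowest, tumor 4 lay inside the benign range, and tumor 3 was under the lowest benign sample by less than 1 CPM. The means were 48.0 ± 6.16 and 32.1 ± 12.7 CPM, and the log2 fold change of Spry1 was -0.58 (SE 0.25, adjusted p = 0.065 by edgeR). This was the weakest call of the 10. It was lost without benign sample 2 (-0.47, adjusted p = 0.165) or 3 (-0.55, 0.110), or without tumor 1 (-0.36, 0.124), 2 (-0.53, 0.125) or 6 (-0.41, 0.183), and it was lost against benign samples 1, 2 and 5 alone (-0.57, 0.191). The direction was the same in all of these fits. Of the exon bases of Spry1, 24.4% overlap an opposite-strand gene that is not in the table. The bases before its start are shown beside those of the 2 phosphatases as the gene that differs from them in direction. They cover chr3:37639697-37639946 on the plus strand of GRCm38, with a GC content of 62.4%.
Spry1: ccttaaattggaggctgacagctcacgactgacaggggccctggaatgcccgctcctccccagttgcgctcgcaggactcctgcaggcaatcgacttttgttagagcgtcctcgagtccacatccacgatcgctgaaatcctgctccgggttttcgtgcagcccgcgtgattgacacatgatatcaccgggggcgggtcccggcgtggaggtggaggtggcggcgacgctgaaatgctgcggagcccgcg

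All 3 Spred genes were higher in every tumor than in any benign sample. Spred1, which encodes the neurofibromin partner mutated in Legius syndrome, had a level of 48.1, 67.7 and 81.0 CPM in benign tissue (lowest, median and highest) and 169.8, 194.8 and 206.2 CPM in the tumors. The tumors were tightly grouped, with a mean of 191.3 ± 13.8 CPM against 65.4 ± 12.3 CPM, and the log2 fold change of Spred1 was 1.55 (SE 0.13, adjusted p = 5.6e-07 by edgeR). Spred2, a close relative with the same domains, had a level of 31.6, 45.3 and 51.6 CPM in the benign samples and 53.4, 60.2 and 70.2 CPM in the tumors. Its groups were separated by a small gap, and its log2 fold change of 0.46 was the lowest of the 9 that rose (SE 0.12, adjusted p = 0.0055 by edgeR). Spred3, the least expressed of the family, had a level of 3.96, 5.51 and 11.9 CPM in the benign samples and 16.3, 25.4 and 36.2 CPM in the tumors. Its log2 fold change was 1.93 (SE 0.28, adjusted p = 8.1e-05 by edgeR). Exons of Spred3 share 202 bases, 3.25% of their length, with Ggn on the opposite strand, whose mean level was 0.929 CPM in the benign samples and 4.06 CPM in the tumors.

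**Figure D2:**
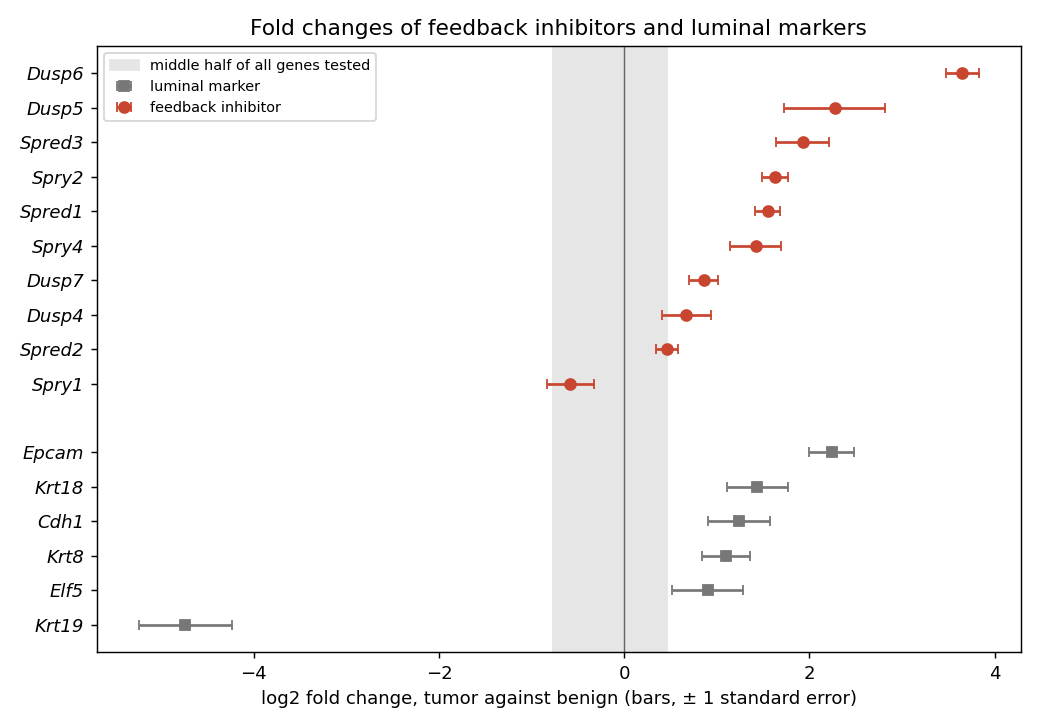
Log2 fold change (tumor over benign, edgeR, 6 samples per group) of the 10 genes (circles) and of the 6 luminal markers (squares), with bars of 1 standard error, and grey shading over the interquartile range of all genes tested. Dusp6 stands highest at 3.65, Spry1 is the only circle below 0 at -0.58, and among the squares Epcam is highest at 2.24 and Krt19 lowest at -4.74.

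The rise in luminal markers gives a scale for these changes. The highest log2 fold change of a luminal marker was that of Epcam, an epithelial adhesion molecule, at 2.24, and the median of the 6 markers was 1.17. Dusp6 was above Epcam, Dusp5 at 2.27 was level with it within its standard error of 0.55, and Spry2, Spry4, Spred1 and Spred3 lay between that median and Epcam. Dusp4, Dusp7 and Spred2 rose by less than the median luminal marker. The difference between the genes and the markers was not tested.

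Members of one family were then compared within each sample, which asks whether the balance between them differed between tumors and benign tissue. The log2 ratio of CPM was taken for each of the 12 pairs within a family, compared by an exact two-sided permutation test, and adjusted over the 12 pairs. The smallest p this design allows is 0.00216, and 7 of the 12 pairs passed at 0.05. Among the phosphatases Dusp6 gained on Dusp7 and on Dusp4. The log2 ratio of Dusp6 to Dusp7 went from 0.56 ± 0.29 to 3.29 ± 0.47, a change of 2.73 with no overlap between groups (exact permutation, adjusted p = 0.0043, n = 6 each). The ratio of Dusp4 to Dusp6 changed by -2.92 (exact permutation, adjusted p = 0.0043), again without overlap. The ratio of Dusp4 to Dusp5 changed by -1.75 (exact permutation, adjusted p = 0.033), and this call was lost in 8 of the 12 fits that left out a sample and against benign samples 1, 2 and 5 alone (-0.80, exact permutation, adjusted p = 0.321). The samples whose absence ended it were benign samples 3, 4, 5 and 6 and tumors 2, 3, 4 and 6, with changes between -1.81 and -1.44.

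The other phosphatase pairs did not pass. The change was 1.56 for Dusp5 to Dusp7 (exact permutation, adjusted p = 0.058), -1.17 for Dusp5 to Dusp6 (0.130) and -0.18 for Dusp4 to Dusp7 (0.647). The pair of Dusp5 and Dusp7 did pass without benign sample 1 (1.88), benign sample 5 (1.81) or tumor 5 (1.83), and the pair of Dusp5 and Dusp6 passed against benign samples 1, 2 and 5 alone (-2.15, exact permutation, adjusted p = 0.041).

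In the Sprouty family Spry1 lost ground to both relatives. The mean log2 ratio of Spry1 to Spry2, in CPM without regard to length, was 0.68 ± 0.27 in benign tissue and -1.62 ± 0.59 in tumors (change -2.30, exact permutation, adjusted p = 0.0043, n = 6 each). Spry1 to Spry4 went from 0.96 ± 0.42 to -1.09 ± 0.56 with the same p. Neither pair overlapped between groups. The ratio of Spry2 to Spry4 changed by 0.25, which did not pass (exact permutation, adjusted p = 0.489). In the Spred family, Spred2 lost ground to both relatives. The ratio of Spred1 to Spred2 rose by 1.10 and that of Spred2 to Spred3 changed by -1.48 (exact permutation, adjusted p = 0.0043 for both), with no overlap, while that of Spred1 to Spred3 changed by -0.38 and did not pass (0.291).

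Levels were compared between genes per length, as CPM per kb of exon. In benign tissue Dusp6 was highest at 21.1 ± 1.55 CPM per kb (SD, n = 6), followed by Spry1 (16.5 ± 2.12), Spry2 (14.3 ± 2.09), Dusp4 (14.2 ± 4.80) and Dusp7 (13.6 ± 3.08). Spred1 (9.64 ± 1.82), Spred2 (9.51 ± 1.43), Spry4 (5.30 ± 1.61), Dusp5 (4.31 ± 3.59) and Spred3 (1.13 ± 0.49) came after. The ranges of every pair of neighbours in this order overlapped, so it is not a firm ranking. In tumors Dusp6 stood alone at 265.1 ± 68.8 CPM per kb and Spry2 came next at 44.3 ± 7.75, each apart in range from the gene after it. Spred1 (28.2 ± 2.03), Dusp7 (24.7 ± 3.36), Dusp4 (22.7 ± 7.55), Dusp5 (20.8 ± 11.1), Spry4 (14.2 ± 5.56), Spred2 (13.1 ± 1.31), Spry1 (11.0 ± 4.36) and Spred3 (4.29 ± 1.12) followed, with overlap between all neighbours. By its mean, Spry1 was the second in benign tissue and the ninth in tumors.

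As a share of the summed CPM per kb of the 4 ERK phosphatases, Dusp6 went from 39.8% ± 2.71 in benign tissue to 79.1% ± 5.27 in tumors. The sum itself went from 53.2 ± 5.34 to 333.2 ± 73.0 CPM per kb. Spry1 fell from 45.7% ± 3.28 to 15.5% ± 4.31 of the Sprouty sum, and Spred1 went from 47.4% ± 2.59 to 61.9% ± 4.14 of the Spred sum. Over all 10 genes, Dusp6 accounted for 19.3% ± 1.61 of the sum in benign tissue and 58.6% ± 6.86 in tumors. These shares are descriptions without a test.

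**Figure D3:**
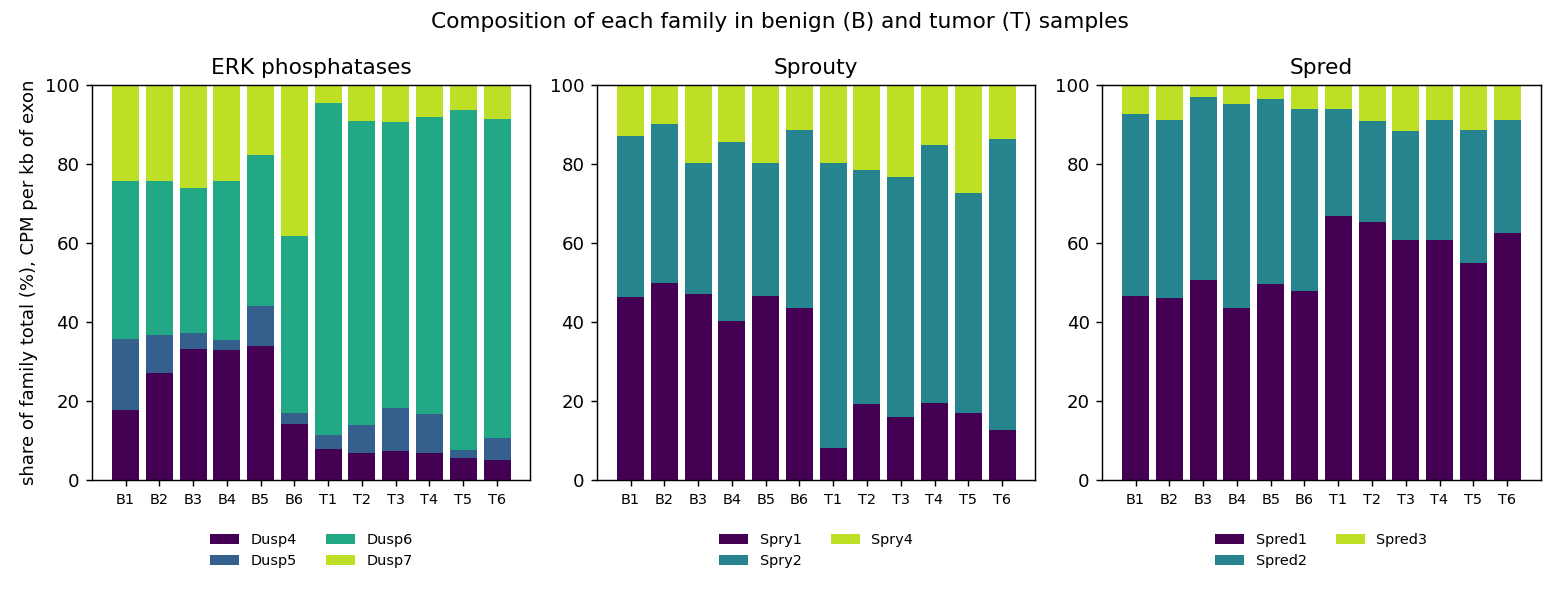
Share (%) of each gene in the summed CPM per kb of exon of its family, as 1 stacked bar per sample for the 6 benign samples (B) and the 6 tumors (T). Dusp6 fills 39.8% of the phosphatase sum on average in benign tissue and 79.1% in tumors, and Spry1 shrinks from 45.7% to 15.5% of the Sprouty sum.

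No relation between the amount of the driver and any of the 10 genes passed a test among the tumors. Erbb2 was 44.8 to 73.7 CPM in the benign samples and 1989 to 16634 CPM in the tumors, a wide spread among tumors against which each gene could be set. Over the 6 tumors Pearson's r with log2 Erbb2 ran from -0.25 for Spry1 to 0.44 for Spred1, and the smallest p of the 10 was 0.389 (exact permutation over 720 pairings, smallest adjusted p = 0.936). For Dusp6, r was 0.04 and Spearman's rho was 0.20. The smallest p of Spearman's rho over the 10 genes was 0.419 (exact permutation, smallest adjusted p = 0.714). Without tumors 3 and 4, the farthest from the median of Erbb2, r was 0.93 for Dusp6, 0.81 for Spry2 and -0.21 for Spred1 over 4 tumors, so single tumors decide the size of r and its sign for several genes, and 6 tumors cannot settle a relation. Tumor 1 was the highest of the tumors for Dusp6 (1214 CPM) and Dusp4 (99.2 CPM) and the lowest for Spry1 (13.5 CPM).

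The ERK cascade list held 26 genes, from ERBB receptors to ERK and the RSK kinases that ERK activates, and all were tested. Of these, 8 were higher and 10 were lower in tumors, and the median log2 fold change was -0.12. These counts are near the background of 28.1% higher and 34.8% lower over all genes. The 8 include the driver Erbb2 itself, at a log2 fold change of 7.03. Egfr, the partner receptor of HER2, was higher at 1.03 (adjusted p = 7.9e-04 by edgeR), while Map2k2, which encodes MEK2, was lower at -0.50 (0.0043). Shc1, Sos1, Braf and Map2k1, which encode an adaptor, a RAS activator, a RAF kinase and MEK1, had log2 fold changes between -0.12 and 0.20 and were not called.

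Of 15 genes known to be induced by ERK 14 were tested, of which 8 were higher and 3 were lower, with a median of 0.83. The 8 include Etv1 and Ier3, at log2 fold changes of 6.02 and 4.92. The study picked both out from these samples, so they are not independent evidence of a direction. Over all genes tested 28.1% were higher and 34.8% were lower. The difference from the other lists was not tested. Etv5, an ETS factor of the PEA3 group, rose from 39.9 ± 16.5 to 567.2 ± 98.8 CPM, at a log2 fold change of 3.83 that is close to that of Dusp6 (adjusted p = 2.0e-07 by edgeR). Its relative Etv4 rose by 1.97 (0.0035), Phlda1 by 2.21 (3.0e-04) and the cyclin gene Ccnd1 by 0.98 (0.041). The immediate early gene Egr1 was at 164.0 ± 53.3 CPM in the benign samples and 156.4 ± 87.8 CPM in the tumors and was not called (log2 fold change -0.07, adjusted p = 0.867).

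Other dual-specificity phosphatases, many of which act on JNK and p38, were more often lower than higher. Of 12 genes 10 were tested, of which 2 were higher and 6 were lower, with a median of -0.56. All genes tested were also more often lower (34.8%) than higher (28.1%). Dusp10, a JNK and p38 phosphatase, fell from 35.4 ± 14.4 to 1.18 ± 0.54 CPM (-4.88 on the log2 scale, adjusted p = 3.6e-07 by edgeR), and Dusp1, a nuclear stress-induced phosphatase, fell from 122.5 ± 56.8 to 19.8 ± 6.72 CPM (-2.63, 1.7e-05). Dusp8 and Dusp16, both JNK phosphatases, rose by 0.88 (0.011) and 0.73 (0.014). The difference between the 2 groups of phosphatases was not tested.

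Further inhibitors of receptor and RAS signaling were mixed. Of 23 genes 22 were tested, all but Spry3, of which 12 were higher and 6 were lower, with a median of 0.34. The shares over all genes tested were 28.1% higher and 34.8% lower. Errfi1, an inhibitor of ERBB receptor kinases, rose by 1.85 (adjusted p = 4.3e-04 by edgeR), Lrig1, which promotes ERBB receptor degradation, by 1.01 (3.3e-05), and Rasa1, a RAS GTPase-activating protein, by 1.15 (3.4e-05). Il17rd, an inhibitor of FGF signaling to ERK, fell by 1.08 on the log2 scale (0.011). Nf1, which encodes the neurofibromin that Spred proteins recruit, was 49.1 to 53.1 CPM in the benign samples and 213.2 to 533.5 CPM in 5 tumors but 3680 CPM in tumor 1 (log2 fold change 4.25, adjusted p = 1.4e-04). Its introns hold other genes on the opposite strand, and whether these bear on its count was not tested.

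**Figure D4:**
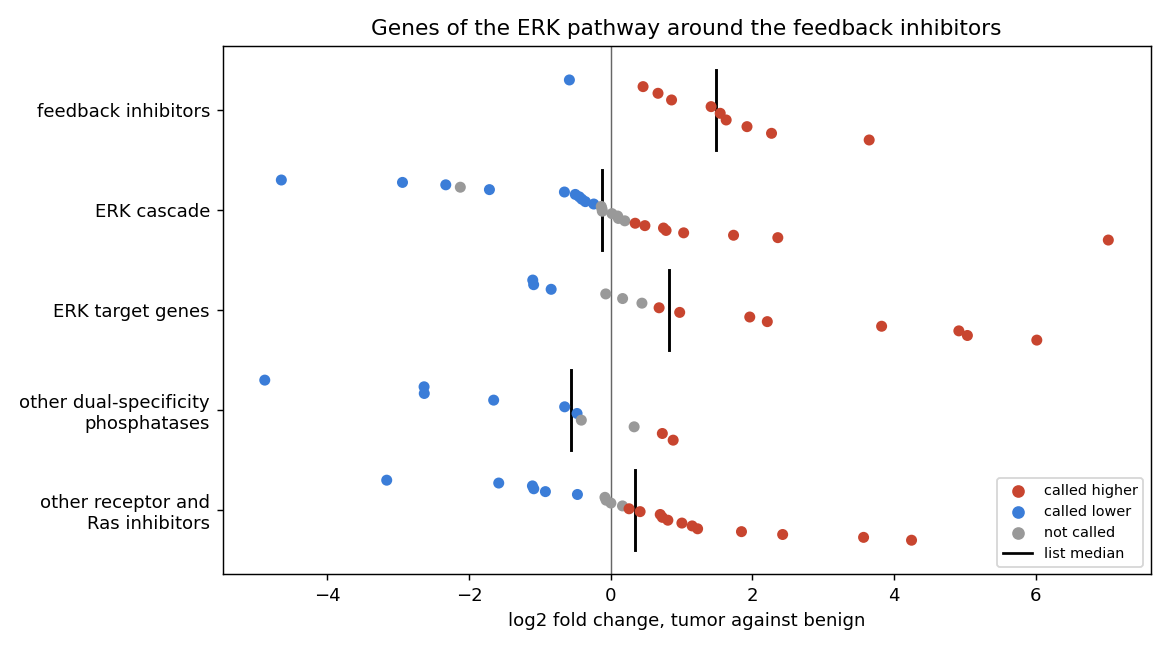
Log2 fold change (tumor over benign, edgeR) of each tested gene of the 10 described here and of 4 lists around them, 1 point per gene colored by its call (higher, lower or not called), with the list median as a bar and the line at 0 for no change. The 10 genes have a median of 1.48, ERK target genes 0.83, other inhibitors 0.34, the ERK cascade -0.12 and other dual-specificity phosphatases -0.56.

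Promoter windows of RefSeq, from 250 bases before to 50 bases after a start, were given for 8 of the 10 genes and searched on both strands for motifs of factors downstream of ERK. The ETS motif GGAAGT was found in 2 of 8 windows, those of Dusp5 and Spred2, against 23.8% of 32851 windows of all genes. Shorter ETS sites such as GGAA were not searched. In Spred2 the match lies 33 to 28 bases before the RefSeq start, on the minus strand and downstream of the GENCODE start. The longer ETS motif CCGGAAGT, which contains GGAAGT, was in 0 of 8 windows (3.89% of all). The AP-1 motif TGANTCA was in 0 of 8 (7.81% of all), and the cAMP response motif TGACGTCA in 0 of 8 (1.79% of all). A match is only a run of letters in the window, and its absence says nothing of a factor.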

How the data were processed

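Tissue was extracted with TRIzol and RNeasy columns, poly A RNA was enriched, and directional libraries were sequenced as paired reads. Per the labels the authors used Trim Galore, Salmon and DESeq2 with mm10. They deposited 1 table of estimated counts per gene as whole numbers, not scaled for library size. The annotation and tool versions are not given in the sources used here. Columns were matched to samples by label, and 0 columns were left over. The table lists 16411 genes by symbol.

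Counts were filtered with filterByExpr (minimum count 10, total 15), scaled by TMM and tested with the two-sided quasi-likelihood test of edgeR 4.0.16 (robust) in R 4.3.3. Benjamini-Hochberg adjustment ran over the 13191 genes tested, and the threshold of 0.1 followed the study. Per-sample log2 CPM used TMM library sizes and 2 added counts. Single values were compared by exact permutation over samples. Exon lengths and overlaps came from GENCODE M21 on GRCm38, which may not be the authors' annotation.

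The ranges of total counts in each group are given with the results. Replicates differed by more than sampling noise (smallest chi-square per degree of freedom 13.0 in benign tissue and 17.2 in tumors). This does not show that each came from its own mouse. The study counts them as biological replicates, and each was treated as a sample. The same-numbered samples came from different mice and did not deviate together (correlations -0.12 to 0.10), so the numbers were not taken as pairs.

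The genes, lists and tests were chosen with earlier results of these data known. Genes named outside the 10 were a fixed selection from each list, some of which are not reported here. The alternatives were DESeq2 1.42.0, other scalings and filters, a threshold of 0.05, 0.5 added counts, a replicate block, leaving out each sample, benign samples 1, 2 and 5 alone, and a skeletal muscle score with Ucp1 as covariates.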

Additional observations from a re-analysis of the deposited data

Results flagged for a closer look

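Among 60 groups of 6 samples examined for a single sample far from the rest, for the 10 genes and the others named, 4 stood out, and chance alone flags about 1 in 20. None was one of the 10 genes. Nf1 was 3680 CPM in tumor 1 against 213.2 to 533.5 CPM in the other tumors. Etv4 was 118.8 CPM in tumor 5 against 44.0 to 68.2 CPM, and Egr1 was 332.1 CPM in tumor 4 against 98.5 to 147.8 CPM. Egfr was 46.7 CPM in benign sample 1 against 68.3 to 79.9 CPM in the other benign samples.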

How the results depend on the processing

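The 9 rises kept their direction and call under every scaling, filter, threshold and left-out sample tried, and 7 were still called with the muscle score and Ucp1 as covariates. Fewer genes were called in that fit over all genes tested, 21.7% higher and 26.1% lower, against 28.1% and 34.8% without covariates. Those lost were Dusp4 (0.64, adjusted p = 0.227 by edgeR) and Dusp5 (0.90, value without covariates 2.27, adjusted p = 0.218). Spry1 kept its direction but lost its call with a filter of at least 1 count (-0.50, 0.108), total counts as scaling (-0.51, 0.109), a threshold of 0.05 (-0.58, 0.065), benign samples 1, 2 and 5 alone (-0.57, 0.191) and covariates (-0.59, 0.208). The number of the 10 genes called lower was then 0. Without single samples its log2 fold change ran from -0.64 to -0.36 and that number from 0 to 1. The cause of these losses was not tested.

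Of the pairs, Dusp4 to Dusp5 ran from -2.15 to -1.44, Dusp5 to Dusp7 from 1.21 to 1.88 and Dusp4 to Dusp7 from -0.47 to 0.0016 over left-out samples. Against benign samples 1, 2 and 5 alone Dusp4 to Dusp5 was -0.80 and Dusp5 to Dusp6 was -2.15. With the replicate block, an exact sign-flip test whose smallest p is 0.03125, 0 pairs passed. The changes were as without it: -1.75 for Dusp4 to Dusp5 (adjusted p = 0.161) and, each at an adjusted p of 0.0625, -2.92 for Dusp4 to Dusp6, 2.73 for Dusp6 to Dusp7, -2.30 for Spry1 to Spry2, -2.06 for Spry1 to Spry4, 1.10 for Spred1 to Spred2 and -1.48 for Spred2 to Spred3. The block changed no call among the fold changes of the 10 genes. ERK target genes called lower were 1 to 3, with 1 when benign sample 2 was left out.

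Over left-out tumors r with Erbb2 ran from -0.24 to 0.42 for Dusp4, -0.71 to 0.47 for Dusp5, -0.30 to 0.42 for Dusp6, -0.89 to 0.59 for Dusp7, -0.75 to 0.14 for Spry1, -0.56 to 0.95 for Spry2 and -0.25 to 0.84 for Spred3, each with a change of sign.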

Other observations

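The genes with the pattern most like Dusp6 over the 12 samples (Pearson's r of log2 CPM, a description, since both groups enter it) were Phlpp1, St6galnac4 and Tmem82, each at 0.99. Phlpp1, a phosphatase of AKT, rose from 27.9 to 163 CPM in mean level. Among the nearest to Spry2 were Mir24-1 and Papln (each 0.98), where Mir24-1 is a row name and poly A libraries do not measure the mature miRNA. The nearest to Spred3 were Cngb1, Sorcs1 and Plekhb1 (each 0.97). With the group means removed the nearest to Dusp6 were Ttc13 (0.94), Casd1 (0.93) and Zfp932 (0.93), none of them among the first 3. They are the highest values in a search over all genes tested with 12 samples, so their size alone does not show a relation.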
